A study of Mus musculus with 16 samples.

Results

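The genes described here encode the AP-1 transcription factors Fos, Fosb, Fosl1, Fosl2, Jun, Junb, Jund and Atf3, and the small Maf proteins Maff and Mafk, in primary mouse embryonic fibroblasts given trichostatin A (TSA), dipyridyl (DP) or both. Every probe set that carried one of these 10 symbols was taken, which gave 14 probe sets for 10 genes among 18193 genes with a single symbol on the array. At least 200 units of signal on at least 2 arrays were required of a tested probe set, and 12 of the 14 met this, so that 9 of the 10 genes were among the 11481 genes tested. Fosb was the gene left out, with signals of 14.3 to 125 on all 16 arrays. Atf3 was tested only because of the arrays of TSA-treated cells, since it reached 200 on all 8 of them and on 0 of the 8 others. Its difference between these arrays was therefore partly built into the filter.

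Fibroblasts came from e14.5 embryos of 4 genotypes and were grown as 4 lines, and one array was hybridised for each line and treatment. The line triCH1flox1 was CBP CH1/flox;p300 CH1/CH1 and the line triCH1flox2 was CBP CH1/CH1;p300 CH1/flox. The control lines were flox1 (CBP +/flox) and flox2 (p300 +/flox). CBP and p300, encoded by Crebbp and Ep300, are related coactivators and histone acetyltransferases, and CH1 names mutant alleles of their CH1 domain, a protein-binding domain known to contact HIF-1α. All 4 lines, controls included, were infected with Cre adenovirus at passage 3, which targets the flox allele that each of them carries, and were then expanded at least 100-fold, so no line was wild type at both genes. Cells received TSA (100 ng/ml) and 30 min later DP (100 µM), or TSA then ethanol, or ethanol then DP, or ethanol at both times as vehicle, all under normoxia, and RNA was taken 3 h later. Each line stood for 1 genotype without replicate cultures. P-values of treatment comparisons therefore measured how the changes varied between lines of a kind, triCH1 or control, and between arrays. Those of line means measured the spread between lines.

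AP-1 is a dimer of basic leucine zipper proteins: a Fos protein (Fos, Fosb, Fosl1, Fosl2) pairs with a Jun protein (Jun, Junb, Jund), Jun proteins also pair with each other and with Atf3, and the dimers bind the sequence TGANTCA or the longer cAMP response element TGACGTCA. Fos and Jun are immediate early genes, induced within minutes of serum, growth factors or stress and then shut off, while Fosl1 and Fosl2 are switched on later, and Jund is present in resting fibroblasts. The small Maf proteins lack a transactivation domain and bind DNA as partners of NRF1, NRF2 or Bach proteins. TSA inhibits histone deacetylases. DP chelates iron, which the prolyl hydroxylases that mark HIF-1α for destruction require, and it is used to mimic hypoxia in culture.

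Promoters of 5 genes that TSA or DP changed are printed to show which of the named elements their start regions hold. RefSeq windows from 250 bases before to 50 bases after a start were given for 9 of the 10 members, in 11 entries on GRCm38.p6, and none was used for Fosl1. Both strands were searched for the AP-1 element TGANTCA, for the cAMP response element TGACGTCA and its shorter form TGACG, which any full element also holds, for the core of the hypoxia response element (ACGTG), for the serum response factor site, named the CArG box, and for the TATA sequence TATAAA. In the sequences below, capitals mark TGACG, TGACGTCA and ACGTG on either strand, with overlapping matches joined. TSA raised Fos, Atf3 and Mafk and lowered Fosl2, while DP raised Maff, whose second annotated start is shown, the one of its 3 that held most elements.
Fos, chr12:85473640-85473939, plus strand: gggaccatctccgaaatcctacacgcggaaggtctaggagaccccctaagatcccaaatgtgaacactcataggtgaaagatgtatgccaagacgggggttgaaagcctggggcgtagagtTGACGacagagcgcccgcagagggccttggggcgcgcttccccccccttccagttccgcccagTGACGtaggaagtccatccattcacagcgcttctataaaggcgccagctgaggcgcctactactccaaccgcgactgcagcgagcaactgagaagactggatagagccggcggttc
Atf3, chr1:191183284-191183583, minus strand: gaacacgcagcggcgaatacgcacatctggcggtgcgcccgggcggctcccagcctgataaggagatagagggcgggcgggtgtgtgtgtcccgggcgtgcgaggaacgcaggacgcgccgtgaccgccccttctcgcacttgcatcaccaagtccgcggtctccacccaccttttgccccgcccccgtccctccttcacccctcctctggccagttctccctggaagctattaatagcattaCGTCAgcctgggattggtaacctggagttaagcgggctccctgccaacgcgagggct
Mafk, chr5:139791286-139791585, plus strand: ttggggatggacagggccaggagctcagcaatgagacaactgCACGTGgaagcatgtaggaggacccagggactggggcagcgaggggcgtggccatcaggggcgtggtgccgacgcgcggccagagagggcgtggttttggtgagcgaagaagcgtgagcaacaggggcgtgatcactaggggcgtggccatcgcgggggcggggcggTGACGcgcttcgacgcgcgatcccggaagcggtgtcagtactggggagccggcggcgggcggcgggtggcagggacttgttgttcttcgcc
Fosl2, chr5:32136222-32136521, plus strand: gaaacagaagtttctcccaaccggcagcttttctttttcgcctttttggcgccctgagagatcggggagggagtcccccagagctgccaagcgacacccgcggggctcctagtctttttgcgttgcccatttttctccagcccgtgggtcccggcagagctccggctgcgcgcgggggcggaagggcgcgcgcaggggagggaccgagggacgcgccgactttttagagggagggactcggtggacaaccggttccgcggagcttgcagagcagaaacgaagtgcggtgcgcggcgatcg
Maff, chr15:79347270-79347569, plus strand: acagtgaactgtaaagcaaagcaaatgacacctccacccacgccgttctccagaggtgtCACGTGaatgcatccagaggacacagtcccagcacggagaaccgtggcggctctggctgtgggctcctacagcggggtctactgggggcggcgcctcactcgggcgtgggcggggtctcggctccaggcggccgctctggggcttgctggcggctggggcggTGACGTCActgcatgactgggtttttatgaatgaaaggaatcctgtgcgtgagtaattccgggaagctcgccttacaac

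The Fos window held TGACG at -129 to -125 and at -66 to -62, counted from the start, and TATAAA at -33 to -28. In the Atf3 window the single TGACG lay on the opposite strand at -7 to -3. Mafk had TGACG at -41 to -37 and the palindrome CACGTG, which is ACGTG on both strands, with its first base at -208. The second Maff start had the full TGACGTCA at -29 to -22 and ACGTG on both strands near -190. Of the other Maff starts, the first had no searched element and the third had a single TGACG on the opposite strand at -122 to -118. No searched element was found in the printed Fosl2 window. The Jun window, not printed although TSA lowered Jun, held no searched element either. Of the other windows not printed, Fosb had TGACG at -60 to -56. Junb had TGACG at -106 to -102 and TATAAA at 1 to 6. Jund had ACGTG on the opposite strand at -83 to -79 and at -74 to -70. Of all 32817 promoter windows of the same length, 20.8% held TGACG, 1.79% TGACGTCA, 19.6% ACGTG, 7.81% TGANTCA, 1.63% the CArG box and 13.6% TATAAA. These matches describe letters in a window, and binding was not measured.

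Between 36.8% and 42.6% of all probe sets had 200 units or more on an array, and the median signal lay between 103 and 154. Over 4 lines DP raised Bnip3, a HIF target, by 3.40 and the glucose transporter gene Slc2a1 by 1.88 (log2, adjusted p = 9.39e-14 and 4.51e-11 by limma). Cdkn1a, the p21 gene, had been chosen as the check of TSA and was not raised. TSA lowered it on its brighter probe set by 0.28 (adjusted p = 0.0341), while a second probe set gave +0.09 and did not pass. Over 4 lines TSA also lowered Crebbp by 1.56 and Ep300 by 1.59 (adjusted p = 6.18e-07 and 7.40e-06 by limma). Fibroblast markers reached a median of 200 for 14 of 14 genes, whereas 0 of 5 endothelial, 1 of 6 leukocyte, 2 of 5 epithelial, 1 of 4 skeletal muscle and 2 of 4 neural markers did. One vehicle array, that of flox1, had a Gapdh 3′ to 5′ ratio of 2.59 against 0.907 to 1.26 on the 15 others, and it and the DP array of flox2 had 18S signals of 9280.2 and 8257, against 1043 to 3713 on the other 14. Values without these arrays are given below where a call changes. The labels give all arrays the same lot; by their barcodes 12 arrays, with all 4 of vehicle, belonged to one barcode series and 4 to another, namely those of triCH1flox1 with TSA with DP, TSA and DP and that of flox2 with TSA with DP. Where a term for this series changed a member's call over 4 lines, its value is given; for DP or TSA against vehicle the value without triCH1flox1 stands beside it, which leaves these arrays within 1 series. Eif2s3y, a Y-linked gene, read 8.9 to 82.9 in triCH1 lines and 974 to 1519 in control lines, and Xist read 1751 to 5389 in triCH1 lines and 10.1 to 111 in control lines, so sex and CH1 genotype cannot be told apart in any comparison of the line classes.

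**Figure D1:**
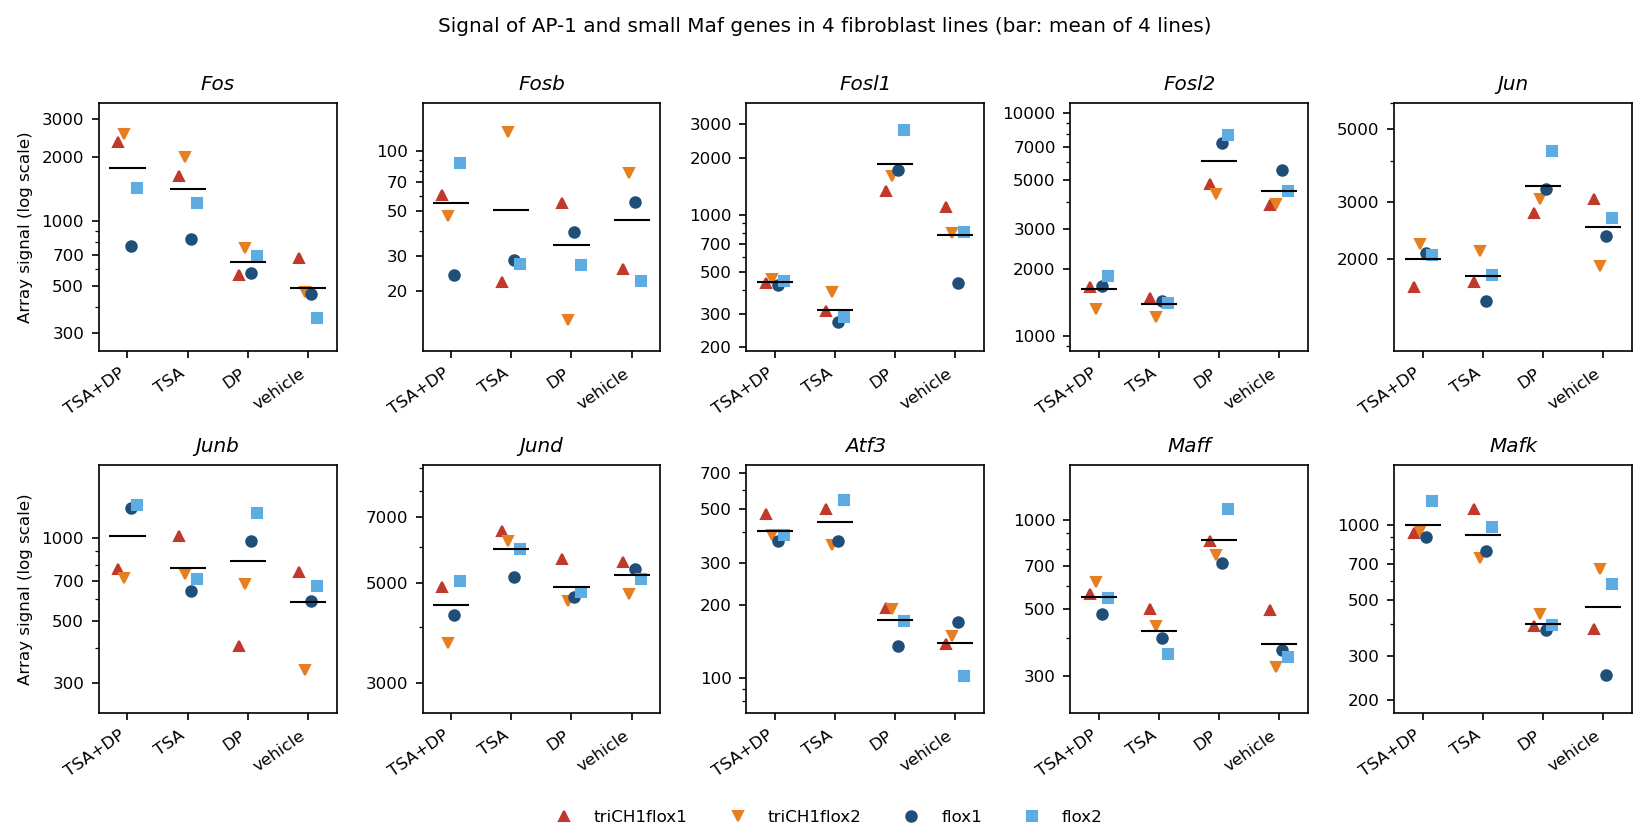
Array signal (y axis, log scale, a separate range for each gene) of the 10 genes under TSA with DP, TSA, DP and vehicle (x axis). Points are single arrays of the lines triCH1flox1, triCH1flox2, flox1 and flox2, and bars are means of 4 lines; Fos, Atf3 and Mafk are higher and Fosl1 and Fosl2 lower on the TSA arrays than on the vehicle arrays, and Fosb stays below 200 throughout.

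Trichostatin A moved the family in both directions. Against vehicle and over 4 lines, 3 of the 9 tested genes rose (Fos, Atf3 and Mafk), 3 fell (Fosl2, Fosl1 and Jun) and 3 did not pass (Junb, Jund and Maff), at an adjusted p under 0.05. Across all tested genes 28.2% passed in this comparison, 15.8% upward and 12.5% downward, and 6 of 9 is to be read against that share. The median log2 difference was 0.19 over the 9 genes and 0.03 over all genes.

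Among the Fos proteins, Fos, the founding member and the classic immediate early gene, read 1621 in triCH1flox1, 1993 in triCH1flox2, 829 in flox1 and 1223 in flox2 after TSA, against 676 in triCH1flox1, 469.8 in triCH1flox2, 457 in flox1 and 354 in flox2 after vehicle. The lowest TSA array lay above the highest vehicle array, although that array, flox1, stood well under the other TSA arrays. The difference in Fos was 1.41 ± 0.18 (log2, SE), or 2.65-fold, with an adjusted p of 2.04e-05. Fosl2, encoding Fra-2, went the other way, with 1474 in triCH1flox1, 1221 in triCH1flox2, 1434 in flox1 and 1403 in flox2 after TSA against 3859 in triCH1flox1, 3907.5 in triCH1flox2, 5556 in flox1 and 4486 in flox2 after vehicle. All 4 lines had lost most of its signal and the groups were far apart. Fosl2 fell by 1.64 ± 0.10 (log2, SE), which is 3.12-fold and had the smallest p among the members (adjusted p = 2.58e-08). Fosl1, which encodes Fra-1, a factor tied to proliferation and cell motility, read 309.5 in triCH1flox1, 392 in triCH1flox2, 272.5 in flox1 and 287 in flox2 after TSA and 1102 in triCH1flox1, 799 in triCH1flox2, 437 in flox1 and 810.0 in flox2 after vehicle. TSA arrays of Fosl1 were close together, while vehicle arrays differed more than 2-fold among lines, and the groups did not overlap. On this brighter probe set Fosl1 fell by 1.14 ± 0.17 (log2, SE; 2.21-fold, adjusted p = 9.09e-05). A dimmer one, mostly under 200, gave -0.44, was lower in 2 of 4 lines and did not pass (adjusted p = 0.482 by limma). Fosb stayed below the filter after TSA, at 22.3 to 125, and after vehicle, at 22.5 to 77.6.

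In the Jun group, Jun, the best-known partner of Fos and a target of JNK kinases, read 1710.0 in triCH1flox1, 2121 in triCH1flox2, 1497 in flox1 and 1797 in flox2 after TSA against 3068 in triCH1flox1, 1913.5 in triCH1flox2, 2357 in flox1 and 2678 in flox2 after vehicle. It was lower after TSA in 3 of 4 lines and slightly higher in triCH1flox2, so the groups overlapped. Jun fell by 0.47 ± 0.14 (log2, SE; 1.39-fold, adjusted p = 0.0201) and passed under 20 of 30 other settings, and the second Jun probe set fell by 0.45 (adjusted p = 0.0113 among probe sets tested singly, of which 22.2% passed). With a term for the array series the Jun difference was -0.31, and without triCH1flox1 it was -0.23, and neither passed (adjusted p = 0.0618 and 0.232). Junb, whose product often restrains Jun, read 1020.1 in triCH1flox1, 738 in triCH1flox2, 642 in flox1 and 711 in flox2 after TSA against 754 in triCH1flox1, 332 in triCH1flox2, 593 in flox1 and 671 in flox2 after vehicle. Its difference of 0.41 came largely from triCH1flox2, the line with the lowest vehicle value, and did not pass (adjusted p = 0.139). With the array series as a term it was 0.57, and without triCH1flox1 also 0.57, and both passed (adjusted p = 0.0392 and 0.0285). Jund read 5153 to 6532 after TSA and 4735 to 5574 after vehicle, and its 0.19 difference did not pass either (adjusted p = 0.112).

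Atf3, a stress-induced factor that can repress its targets as a homodimer, read 497 in triCH1flox1, 355 in triCH1flox2, 368 in flox1 and 543 in flox2 after TSA, against 138 in triCH1flox1, 149 in triCH1flox2, 171 in flox1 and 102 in flox2 after vehicle. Every TSA array was above every vehicle array, and no vehicle array reached 200. The difference of 1.36 ± 0.22 (log2, SE; 2.57-fold, adjusted p = 0.000183) is stated with the filter described above in mind. The small Maf genes parted: Mafk read 1158 in triCH1flox1, 742 in triCH1flox2, 790.3 in flox1 and 979.5 in flox2 after TSA and 384 in triCH1flox1, 666 in triCH1flox2, 252 in flox1 and 582 in flox2 after vehicle, whereas Maff read 356 to 501 after TSA and 321 to 499 after vehicle. Vehicle values of Mafk were spread widely, and in triCH1flox2 it was 742 with TSA and 666 with vehicle. Mafk rose by 0.95 ± 0.20 (log2, SE; 1.93-fold, adjusted p = 0.00158) and no longer passed without the line triCH1flox1. Maff differed by 0.14, with a 95% interval of -0.21 to 0.49.

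In 5 of the 9 genes the TSA and vehicle arrays did not overlap, 3 above and 2 below, where 13.1% and 10% of all tested genes did so; Atf3 is among the 3. Leaving out the vehicle array of flox1 left 6 genes called. Without it and the DP array of flox2, 5 were called, and Jun, at -0.49, did not pass (adjusted p = 0.0571). No CH1 difference in the TSA changes was detected at this size on the brightest probe sets. In the test of the difference between triCH1 and control lines 0 of 9 genes passed, and of all genes 0% did. An unadjusted p under 0.05 in limma was found for 0 of the 9 and for 5.71% of all genes. The dimmer Fosl2 probe set had such a p but did not pass, as given below with the second probe sets. For Fos the class difference was 0.36 with a 95% interval of -0.39 to 1.11, which is wide beside the TSA change itself. TSA arrays also had summed signals of the 4 neural markers of 1091 to 2176, against 441 to 1535 on arrays without TSA, and of the 14 fibroblast markers of 181695 to 225509, against 195017 to 242764. The part of these shifts in the results was not tested, and in bulk RNA fewer cells of a type and less RNA per cell cannot be told apart.

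**Figure D2:**
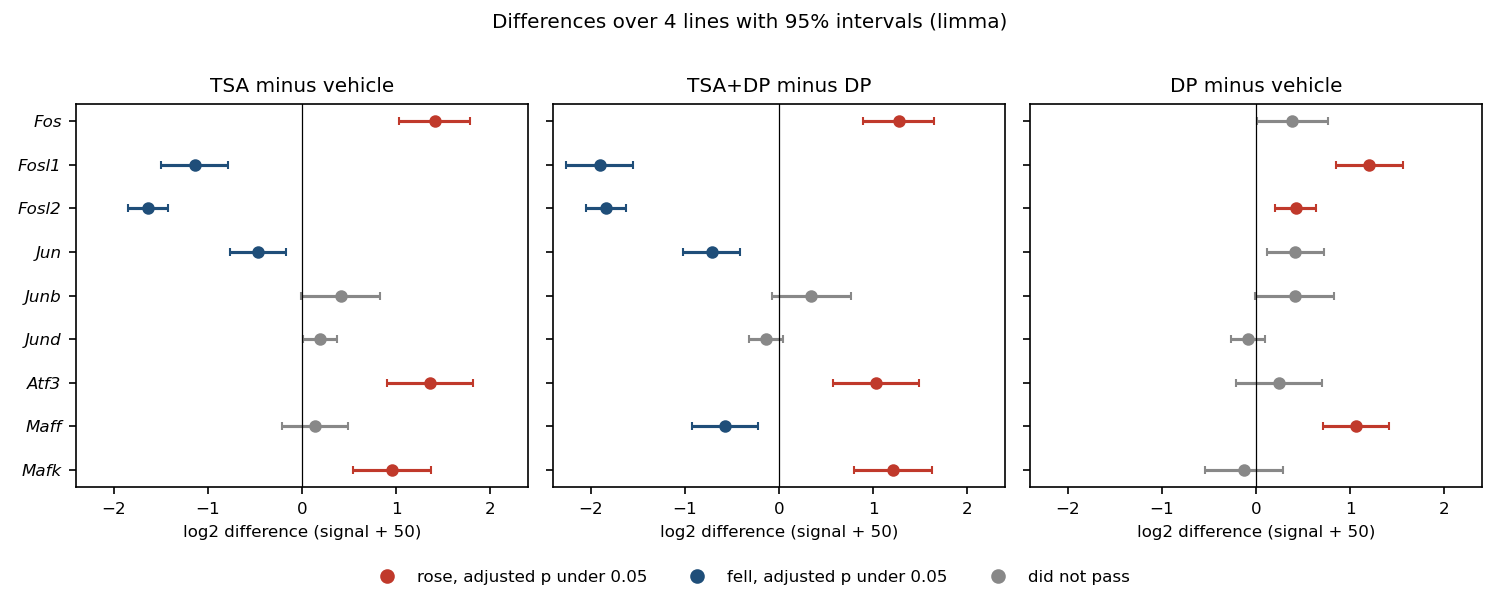
Log2 differences (x axis) of the 9 tested genes over 4 lines with 95% intervals from limma, for TSA minus vehicle, TSA with DP minus DP, and DP minus vehicle. Red points rose, blue points fell and grey points did not pass at adjusted p under 0.05; Fosl1 stands at -1.14, -1.91 and 1.20 in the 3 panels.

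Dipyridyl alone raised 3 of the 9 genes and lowered none: Fosl1, Maff and Fosl2 passed over 4 lines, where 1.44% of all tested genes rose and 1.71% passed in either direction. At an unadjusted p under 0.05 there were 5, the same 3 with Jun and Fos, all higher, where 12.6% of all tested genes had such a p and 5.78% were higher. The median difference was 0.41 over the 9 genes and -0.03 over all genes. Maff, a small Maf inducible by stress and inflammatory cytokines, read 851 in triCH1flox1, 759 in triCH1flox2, 718 in flox1 and 1089 in flox2 after DP, against 499 in triCH1flox1, 321 in triCH1flox2, 367 in flox1 and 347 in flox2 after vehicle. Each line was higher with DP and the lowest DP array stood above the highest vehicle array. Maff rose by 1.06 ± 0.17 (log2, SE; 2.09-fold, adjusted p = 0.00101) and did not pass without the line triCH1flox2. Fosl1 read 1335 in triCH1flox1, 1606.5 in triCH1flox2, 1722 in flox1 and 2788 in flox2 after DP, against the 437 to 1102 of vehicle given above. It was higher in all 4 lines, most in flox1 and flox2 and least in triCH1flox1, whose vehicle value was already the highest. Fosl1 rose by 1.20 ± 0.17 (log2, SE; 2.30-fold, adjusted p = 0.000332). Among all tested genes 2.26% had every DP array above every vehicle array, and 2 of the 9 members did.

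Fosl2 read 4798 in triCH1flox1, 4347 in triCH1flox2, 7348 in flox1 and 7924 in flox2 after DP, which in each line was above its own vehicle array, though the groups overlapped. Its difference of 0.42 ± 0.10 (log2, SE; 1.34-fold) had an adjusted p of 0.0449, near the threshold, and it passed under 6 of 30 other settings. Without the DP array of flox2 the Fosl2 difference was 0.38 and did not pass. Without that array and the vehicle array of flox1 it was 0.50 and did not pass either. Jun read 2769 in triCH1flox1, 3054 in triCH1flox2, 3288 in flox1 and 4305.5 in flox2 after DP; it was higher in 3 of 4 lines, and the difference of 0.42 did not pass (adjusted p = 0.218). It passed with a term for the array series, at 0.57, and without triCH1flox1, at 0.62 (adjusted p = 0.0177 and 0.0319), while Fosl2, at 0.36 and 0.38, then did not (adjusted p = 0.121 and 0.256). Fos, at 561 in triCH1flox1, 748 in triCH1flox2, 576 in flox1 and 686 in flox2 after DP, differed by 0.38 and Junb by 0.41, each again higher in 3 lines and lower in triCH1flox1 (adjusted p = 0.382 and 0.414). Without triCH1flox1 Junb stood at 0.85 and passed (adjusted p = 0.0213). Atf3 differed by 0.24, Jund by -0.09 and Mafk by -0.13, and Fosb stayed at 14.3 to 55.4 after DP.

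Split by genotype, no member passed in the triCH1 lines, where 0.575% of all genes did, and Fosl1, Maff and Fosl2 passed in the control lines, where 1.55% did. In triCH1 lines 2 of the 9 members had an unadjusted p under 0.05 by limma, Fosl1 and Maff, where 4.9% of all genes did. Fosl1 read 1335 in triCH1flox1 and 1606.5 in triCH1flox2 after DP, against 1102 in triCH1flox1 and 799 in triCH1flox2 after vehicle. In control lines it read 1722 in flox1 and 2788 in flox2 after DP, against 437 in flox1 and 810.0 in flox2 after vehicle. The DP difference in Fosl1 was 0.61 in triCH1 lines (adjusted p = 0.772) and 1.79 in control lines (3.47-fold, adjusted p = 0.000244). The class difference was -1.18 ± 0.34 (log2, SE), with an unadjusted p of 0.00289 and an adjusted p of 0.795, so it did not pass across all genes. Without the vehicle array of flox1 and the DP array of flox2, the Fosl1 change in control lines was 1.11. Its class difference was then -0.49, the smallest under 30 other settings. Maff differed by 0.92 in triCH1 lines (adjusted p = 0.140), against 1.20 in control lines (2.30-fold, adjusted p = 0.0108), and the difference of -0.28 had a 95% interval of -0.98 to 0.42. On its brighter probe set Fosl2 differed by 0.23 in triCH1 lines, against 0.61 in control lines (1.52-fold, adjusted p = 0.0440). The dimmer Fosl2 probe set went the other way in control lines, by -0.51, and did not pass (adjusted p = 0.668 by limma). Without the DP array of flox2 the brighter one was at 0.52 in control lines and did not pass.

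Across the 9 genes 0 passed for the difference between the classes and 1 had an unadjusted p under 0.05, Fosl1; of all genes 0.0261% passed and 4.87% had such a p. The class difference was negative for 7 of the 9, all but Jund and Atf3, where it was negative for 46.9% of all genes. Of the DP and vehicle arrays, only the DP array of triCH1flox1 was in the smaller barcode series. Series and line cannot be told apart there. In that line the DP changes of Fos, Jun and Junb were -0.25, -0.15 and -0.81. In triCH1flox2 they were 0.62, 0.66 and 0.94. For Mafk the mean DP differences were -0.26 in triCH1 and 0.01 in control lines, but the lines within each class went apart. Its DP change was 0.03 in triCH1flox1 and -0.55 in triCH1flox2, and 0.51 in flox1 and -0.50 in flox2. The sign of its class difference turned under 5 of 30 other settings. Junb showed the widest split within a class, with 408 after DP and 754 after vehicle in triCH1flox1, but 683 after DP and 332 after vehicle in triCH1flox2. Its control lines read 975 in flox1 and 1232 in flox2 after DP and 593 in flox1 and 671 in flox2 after vehicle, a change of 0.75 that did not pass (adjusted p = 0.246). In the control lines 7 of the 9 members had DP and vehicle arrays that did not overlap, 6 above and 1 below, and 4 did in the triCH1 lines, all above; with 2 arrays against 2, 15.3% of all genes were above and 20.5% below in control lines, and 12.5% and 14.7% in triCH1 lines. The arrays with the high 18S signals lie in this comparison. Without the DP array of flox2, 1 member passed in control lines, Fosl1 at 1.61 (adjusted p = 0.0195), and Maff stood at 0.91 (adjusted p = 0.207). Without the vehicle array of flox1, Fosl1 was at 1.52 and Maff at 1.33 in control lines (adjusted p = 0.0134 and 0.0483). With both arrays left out no control line kept a DP and a vehicle array, and the DP changes over 4 lines were 0.86 for Fosl1 and 0.94 for Maff (adjusted p = 0.123 and 0.0910).

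**Figure D3:**
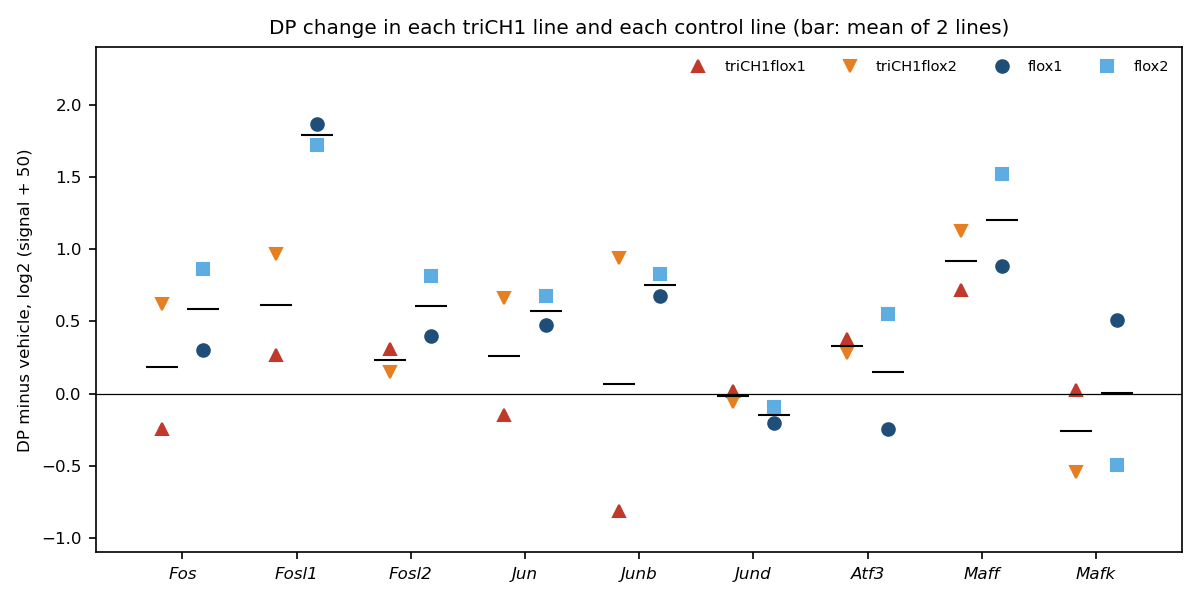
DP minus vehicle (y axis, log2 of signal + 50) for each tested gene, with the triCH1 lines left of the control lines and bars at the mean of 2 lines. Fosl1 is at 0.27 and 0.96 in the triCH1 lines and at 1.86 and 1.72 in the control lines, while Maff is above 0 in all 4 lines.

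With TSA given first, DP-treated cells had lower Fosl1, Fosl2, Jun and Maff and higher Fos, Mafk and Atf3 than cells with DP alone. These 7 of 9 genes passed over 4 lines, 3 up and 4 down, where 29.9% of all tested genes passed, 17.7% upward and 12.2% downward. The same 7 had groups of 4 arrays that did not overlap, where 14.7% of all genes were above and 9.9% below. Fosl1 read 437 in triCH1flox1, 456 in triCH1flox2, 426 in flox1 and 447 in flox2 after TSA with DP, against the 1335 to 2788 of DP alone. All 4 lines lay between 426 and 456, closer together than with DP alone. On this brighter probe set Fosl1 fell by 1.91 ± 0.17 (log2, SE; 3.75-fold, adjusted p = 5.31e-07). The dimmer one gave -0.49 and did not pass (adjusted p = 0.416 by limma). Fosl2 fell by 1.84 ± 0.10 (3.58-fold, adjusted p = 7.43e-09), with 1663 in triCH1flox1, 1314 in triCH1flox2, 1667 in flox1 and 1855 in flox2 after TSA with DP.

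Jun read 1645 in triCH1flox1, 2227 in triCH1flox2, 2094 in flox1 and 2062 in flox2 after TSA with DP, below every array of DP alone. The fall was 0.72 ± 0.14 (log2, SE; adjusted p = 0.00110), and the second Jun probe set fell by 0.75 (adjusted p = 0.000229, with 23.6% of probe sets passing). Maff read 562 in triCH1flox1, 619 in triCH1flox2, 481 in flox1 and 545 in flox2 after TSA with DP, and fell by 0.57 ± 0.17 (adjusted p = 0.0143). Without the DP array of flox2, the highest Maff value of the series, this became -0.43 and did not pass; the fall passed under 23 of 30 other settings. Fos read 2349 in triCH1flox1, 2557 in triCH1flox2, 768.5 in flox1 and 1435 in flox2 after TSA with DP, and rose by 1.27 (adjusted p = 5.01e-05). The triCH1 lines were well above the control lines, and flox1 was the lowest. Mafk read 928 in triCH1flox1, 947 in triCH1flox2, 899.5 in flox1 and 1247 in flox2 and rose by 1.21 (adjusted p = 0.000192), and here the 4 lines did not spread as they did with vehicle. Atf3 read 476 in triCH1flox1, 389 in triCH1flox2, 369.5 in flox1 and 390.5 in flox2 and rose by 1.03 (adjusted p = 0.00175), and the filter bears on this value too.

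The effect of DP in cells that already had TSA was tested as TSA with DP minus TSA alone. No member passed by limma, and 0.148% of all genes did. At an unadjusted p under 0.05 there were 3 of 9 members and 5.35% of all genes. Those 3 were Jund, Fosl1 and Fosl2. Jund, which passed with neither agent alone, read 4894.5 in triCH1flox1, 3669 in triCH1flox2, 4235 in flox1 and 5039.8 in flox2 after TSA with DP, against 6532 in triCH1flox1, 6197 in triCH1flox2, 5153 in flox1 and 5936 in flox2 after TSA. All 4 lines were lower and the groups did not overlap, by -0.42 ± 0.09 (log2, SE; adjusted p = 0.0875). Fosl1 was 0.44 higher in the mean and higher in all 4 lines, and Fosl2 was 0.22 higher. Groups did not overlap for 1 member above, Fosl1, and 1 below, Jund, where 1.26% and 1.45% of all genes did so.

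The interaction of the agents, the DP change with TSA minus the DP change without it, passed for 0 of 9 members and for 0.392% of all genes. Unadjusted p was under 0.05 for 3 members and for 5.92% of all genes by limma. For Fosl1 the interaction was -0.77 ± 0.24 (unadjusted p = 0.00533, adjusted p = 0.425), from DP differences of 0.44 with TSA and 1.20 without. For Maff it was -0.71 ± 0.23 (unadjusted p = 0.00748, adjusted p = 0.511), from DP differences of 0.35 with TSA and 1.06 without, and the Maff value was negative in all 4 lines. Jund had -0.33 ± 0.12 (adjusted p = 0.645). The intervals, -1.27 to -0.26 for Fosl1 and -1.21 to -0.22 for Maff, are those of single genes before adjustment. Without the vehicle array of flox1 and the DP array of flox2, the interaction was -0.42 for Fosl1 and -0.59 for Maff (adjusted p = 0.998 and 0.901).

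**Figure D4:**
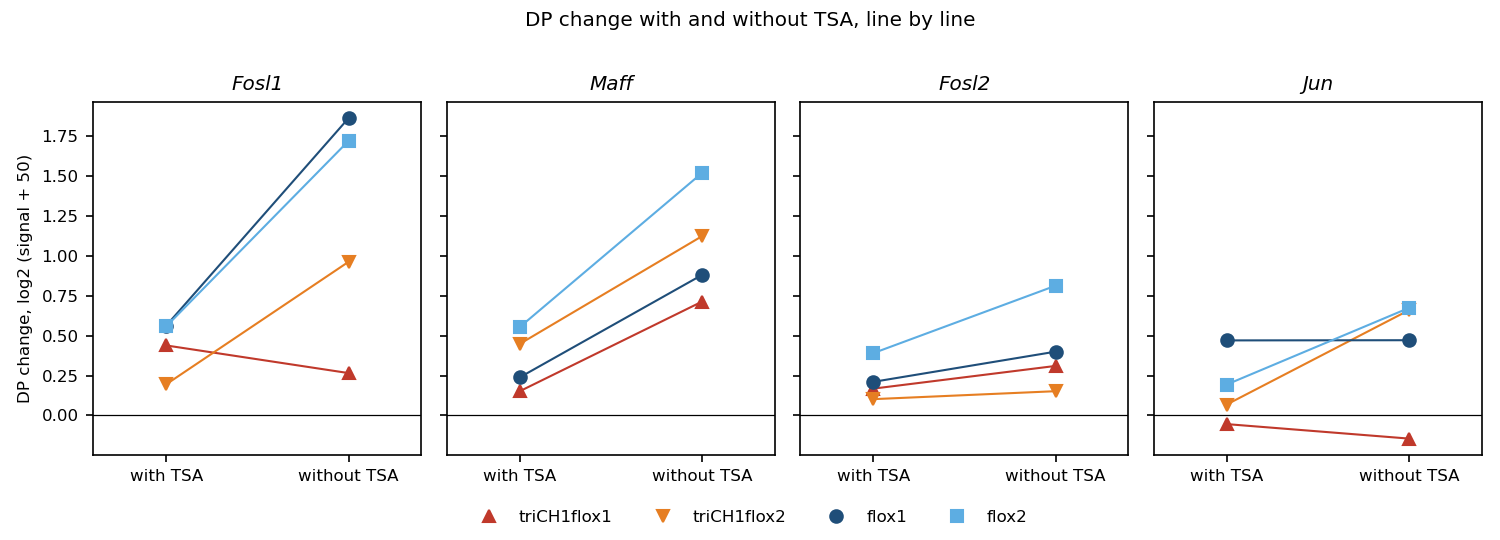
DP change (y axis, log2 of signal + 50) with TSA (TSA with DP minus TSA) and without TSA (DP minus vehicle), joined for each of the 4 lines. Panels show the 3 genes that rose with DP and Jun; the Maff change is smaller with TSA in every line, and the Fosl1 change in every line but triCH1flox1.

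Set against vehicle, TSA with DP raised 5 genes (Fos, Atf3, Mafk, Junb and Maff) and lowered Fosl2 and, on its brighter probe set, Fosl1, where 31.6% of all tested genes passed, 17.8% upward and 13.8% downward. The filter bears on the Atf3 call here too. Fos was higher by 1.66 ± 0.18 (log2, SE), which is 3.15-fold (adjusted p = 3.47e-06). Junb, which passed with neither agent alone, read 772 in triCH1flox1, 719 in triCH1flox2, 1278.5 in flox1 and 1312 in flox2 after the combination, against the 332 to 754 of vehicle. It was higher in each line, by 0.75 ± 0.20 over 4 lines (adjusted p = 0.00840), but by only 0.03 in triCH1flox1, and it did not pass without flox1 or without the vehicle array of triCH1flox2. Maff was higher by 0.49 (adjusted p = 0.0335), and this passed under 19 of 30 other settings. Maff did not pass with a term for the array series, at 0.60, or without the vehicle array of flox1 and the DP array of flox2, at 0.51 (adjusted p = 0.0575 and 0.0616). Fosl1 was lower on its brighter probe set by 0.70 (adjusted p = 0.00441), but this did not hold across probe sets or settings. The dimmer Fosl1 probe set gave +0.48 and was higher in 3 of 4 lines, which did not pass (adjusted p = 0.412), and the mean of both gave -0.11 (adjusted p = 0.726). With the array series as a term the brighter probe set was at -0.43 (adjusted p = 0.130), and it did not pass without flox2 or without triCH1flox1. In flox1, the line with the low vehicle value, it read 426 after the combination and 437 after vehicle. Jun differed by -0.30 and did not pass (adjusted p = 0.122), while its second probe set fell by 0.57 (adjusted p = 0.00201, with 25.4% of probe sets passing) and was lower in 4 of 4 lines.

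The triCH1 lines and the control lines were also compared on line means over the 4 treatments. No member passed by limma, and 0.157% of all genes did. At an unadjusted p under 0.05 there were 3 of 9 members and 10.6% of all genes. Fos was the highest of the 3, at 0.62 above control (unadjusted p = 0.00275, adjusted p = 0.205), and both triCH1 lines were above both control lines on average. Fos in TSA-treated cells was 1621 in triCH1flox1 and 1993 in triCH1flox2, against 829 in flox1 and 1223 in flox2. Junb and Fosl2 were lower in triCH1 lines, by -0.43 and -0.35 (adjusted p = 0.370 and 0.358). With DP, Fosl2 read 4798 in triCH1flox1 and 4347 in triCH1flox2, against 7348 in flox1 and 7924 in flox2. These class values carry the difference in sex-linked genes given above.

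A second probe set was present for Fosl1, Fosl2, Jun and Jund. The dimmer Fosl1 probe set reached 200 on 2 arrays, those of flox1 and flox2 with DP, where it read 209.6 and 402. With vehicle it read 37.9 and 53.0 in these lines. In control lines it differed by 1.85 and did not pass (adjusted p = 0.157, with 1.03% of probe sets passing), and since it met the filter only through these DP arrays, that difference is partly built in. For the dimmer Fosl2 probe set, at 23.1 to 283, the TSA difference was -0.59 and did not pass (adjusted p = 0.192 by limma). Its TSA change was 0.31 in triCH1flox1 and 0.66 in triCH1flox2, against -2.13 in flox1 and -1.20 in flox2. That class difference was 2.15 ± 0.61 (log2, SE) and did not pass, with an unadjusted p of 0.00290 and an adjusted p of 0.825 by limma. TSA with DP against vehicle gave -0.91 (adjusted p = 0.0390 by limma), where 25.4% of probe sets passed. The probe set reached 200 on 2 vehicle arrays and on 0 arrays of TSA with DP, which bears on that value. With DP this probe set differed by -0.06 over 4 lines (adjusted p = 0.958 by limma). It was then higher in the triCH1 lines and lower in the control lines. The second Jund probe set stayed at 17.8 to 141 and was not tested.

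Genes that work with these factors were counted in 6 lists. Of 15 tested dimer partners of AP-1 and Maf proteins and related factors, TSA raised 5 and lowered 4, where 28.2% of all genes passed. The related factors include Creb1, which is also on the next list. With DP 0 of the 15 passed by limma, where 1.71% of all genes did. At an unadjusted p under 0.05, a level 12.6% of all genes reached, 2 were lower with DP, Maf by -0.49 and Creb1 by -0.29 (adjusted p = 0.237 and 0.315). Nfe2l3, the NRF3 gene, rose with TSA by 2.04, while Atf4, the integrated stress response factor, fell by 0.95, Cebpd by 1.41 and Mafg, the remaining small Maf, by 0.80 (adjusted p = 7.80e-05, 5.97e-07, 1.34e-05 and 0.000667). Of the 3 small Maf genes, therefore, TSA raised Mafk, lowered Mafg and left Maff without a call. The list's median TSA difference was -0.07.

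Kinases and transcription factors upstream of AP-1 genes, serum response factor partners among them, had 17 tested genes. Of these TSA raised 5 and lowered 3, where the same 28.2% passed. Map2k6 and Map2k3, the kinases of p38, rose by 1.80 and 0.57, and Elk4 and Elk3, the ternary complex factors that act on the Fos promoter, fell by 1.10 and 0.68 (adjusted p = 0.000238, 9.63e-05, 8.59e-06 and 0.000185). DP raised 1 gene of this list, Map2k1, which encodes the ERK kinase MEK1, by 0.77 (1.70-fold, adjusted p = 4.38e-05 by limma), where 1.44% of all genes rose. Feedback regulators, the phosphatases, Sprouty proteins and mRNA-decay factors that shut the pathway off, had 3 up and 2 down of 14 with TSA, where 15.8% and 12.5% of all genes rose and fell. Dusp1 rose by 0.28 and Dusp5 by 0.53, while Spry2 fell by 0.69. With DP 0 of these 14 passed by limma and 4 were higher at an unadjusted p under 0.05, where 5.78% of all genes were, led by Spred2 at 0.67 and Zfp36l2 at 0.53 (adjusted p = 0.0748 and 0.200). In DP-treated cells TSA lowered 5 of them and raised 1, where 12.2% of all genes fell and 17.7% rose, with Dusp4 lower by 1.35 (adjusted p = 0.000759).

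Of 19 other immediate early genes tested, 6 rose and 3 fell after TSA, where 15.8% and 12.5% of all genes did. Nr4a1 rose by 2.08 and Klf2 by 1.74, while Myc fell by 1.30 and Klf6 by 0.79. DP raised 1, Ier3, by 2.10 (4.30-fold, adjusted p = 6.60e-11 by limma), and lowered 1, Phlda1, by 0.54. Of all tested genes 1.44% rose with DP and 1.71% passed in either direction. For Ier3 the interaction of DP and TSA passed, at -0.87 (adjusted p = 0.00161 by limma), where 0.392% of all genes passed.

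Of 12 tested AP-1 target genes of fibroblasts, TSA raised none and lowered 3, where 28.2% of all genes passed, namely the cytokine gene Lif by 1.21, the urokinase receptor gene Plaur by 0.58 and the cyclin D1 gene Ccnd1 by 0.35 (adjusted p = 0.00104, 0.0135 and 0.0434). DP raised 2, where 1.71% of all genes passed, the growth factor gene Hbegf by 0.54 and the heme oxygenase gene Hmox1 by 1.01 (adjusted p = 0.00130 and 0.0129). Hbegf had an interaction of -0.60 that passed (adjusted p = 0.0346 by limma), where 0.392% of all genes passed. Lif fell by 2.38 with TSA in DP-treated cells (5.20-fold, adjusted p = 1.95e-06 by limma), where 12.2% of all genes fell. Of 11 tested targets of NRF2 with small Maf proteins, TSA raised 2, the glutathione synthesis gene Gclc by 0.89 and Taldo1 by 0.39, and DP raised Hmox1, which is on both lists. The median TSA difference was 0.02 for the AP-1 targets and 0.13 for the NRF2 targets, against 0.03 for all genes.

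Patterns over the 16 arrays, after each line's mean was subtracted, grouped the members. Pearson r was 0.92 for Fosl1 with Jun and 0.90 for Fosl1 with Fosl2, 0.88 for Fos with Atf3 and 0.84 for Atf3 with Mafk, and -0.90 for Fosl2 with both Atf3 and Mafk. These values describe 16 arrays of 4 lines that share their treatments, with no test. Among all tested genes the closest to Fosl1 were Scd2 (r = 0.986) and Arrdc3 (0.978) with Ppp3cb (0.957), and those closest to Fosl2 were Atf4 (0.986), Yy1 (0.984) and Setd5 (0.979). Fos was nearest to Pomgnt2, Pmaip1 and Arl16 (0.975, 0.973 and 0.969), and Atf3 to Bcl2l11 (0.977). The genes closest to Maff were P4ha1, Fam162a and Pgam1 (0.964, 0.964 and 0.956), and Golm1 was closest to Mafk (0.958). For Jun, Junb and Jund the highest values were lower, at 0.927 with Tmpo, 0.901 with Hsbp1 and 0.897 with Mau2.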

How the data were processed

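Each array of biotin-labelled total RNA gave 1 deposited intensity per probe set, which the authors scaled to a target mean of 500 per the labels, and the deposited signals met this as a 2% trimmed mean. No source used here names the software version. Labels give scaling factors of 4.36 to 6.20. Of 45101 probe sets, 64 controls and those without a single symbol were left out; 34945 remained and 19895 passed the filter. Signals were analysed as log2(signal + 50), so changes of dim genes are understated. Each gene was represented by its brightest passing probe set, by mean signal.

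The linear model (limma 3.58.1, R 4.3.3) took all 16 arrays, with 8 group means, the line within each class as a replicate block and trended variances (6 residual and 10.4 prior degrees of freedom). Classes were compared on 4 line means. P-values were adjusted over all 11481 genes (Benjamini-Hochberg) and 95% intervals are unadjusted. The labels name the line of every array, so the block pairs arrays by line; deviations from group means of arrays of one line correlated at 0.08 to 0.33, and those of like-numbered lines of the other class at 0.01 to 0.17. Arrays correlated at 0.90 to 0.96 and 0 pairs were identical. The precision is limited by the number of arrays. The procedure was tested on simulated data. Figures used Python 3.11.15 and matplotlib 3.10.9.

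The members and lists were chosen with earlier results of these data known. Named genes were all members, the check genes, up to 4 of each list with the smallest adjusted p among those passing a comparison, and the 3 genes with the highest correlation to each member. Some listed genes were not analysed here.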

Additional observations from a re-analysis of the deposited data

Results flagged for a closer look

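Of 48 groups of 4 arrays examined for these genes, 2 held a value far from the other 3, and chance alone marks about 1 in 20 groups. The dimmer Fosl1 probe set read 151.9 on the vehicle array of triCH1flox2, against 37.9 to 53.0 on the other vehicle arrays. On the brighter Fosl1 probe set the same array read 799 and did not stand apart. Mafk read 1247 with TSA and DP in flox2, against 899.5 to 947 in the other lines.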

How the results depend on the processing

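No called member changed sign under any of 30 other settings, where they passed in 691 cases and did not in 89. Counts of members called were 3 for DP over 4 lines and 3 for DP in control lines, and with the vehicle array of flox1 and the DP array of flox2 both left out, an alternative chosen after seeing the data, they were 0 and 0; no control line then has both arrays, so fewer comparisons remain. Leaving out single lines or arrays gave 1 to 4 for each of these, 0 to 0 in triCH1 lines and for both class differences, 5 to 6 for TSA (6), 5 to 7 for TSA with DP against vehicle (7), 6 to 8 against DP (7), 0 to 1 against TSA (0), 0 to 0 for the interaction of the agents, and 0 to 1 for the line classes (0). DP in control lines fell to 1 member without flox1, without flox2 or without its DP array, and DP over 4 lines to 1 without triCH1flox2. Quantile normalization gave 1 for TSA with DP against TSA, as Jund then passed; so did leaving out either control vehicle array. Pairing the line numbers across classes as a replicate block gave 1 for the line classes, Fos, as did leaving out flox2; fits without the line block kept every count within 1.5 times, though Fosl2 with DP then did not pass. The Fosl2 rise with DP passed under 6 of 30 settings over 4 lines and 8 of 30 in control lines, and the Jun fall with TSA under 20. Fos, Fosl1, Fosl2 and Atf3 passed with TSA under all 30, though the Atf3 difference is partly built into the filter. Signal limits Fosb and the second probe sets, most of which lie near or under 200.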
